A study of Mus musculus with 8 samples.

Results

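The epidermal differentiation complex is a gene-dense stretch of mouse chromosome 3 that encodes structural proteins of the outer layers of skin. Its accessibility was examined in cells sorted from hair follicles. The genes were all protein-coding genes of chromosome 3 whose symbols start with Lce, Sprr or S100a, together with Flg, Flg2, Ivl, Hrnr, Rptn and Crnn. This rule selected 56 of the 21631 protein-coding genes used. They were 15 S100a genes, 14 Sprr genes, Ivl, 21 Lce genes, and the 5 genes Crnn, Flg2, Flg, Hrnr and Rptn. A peak belonged to one of them when that gene's span, among all protein-coding spans within 100 kb, lay nearest to the middle of the peak. The farthest assigned peak lay 43.4 kb from its gene, so the 100 kb limit left out no peak.

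The assay was ATAC-seq, which tags open chromatin with adapters carried by a transposase, on back skin cells of mice of mixed sex. Bulge stem cells (GFP+/CD34+) and hair germ cells (GFP+/CD34-), both positive for α6 and β1 integrin, came from Lgr5-eGFP-ires-CreER mice at postnatal day 55, when follicles were in telogen, the resting phase. Basal transient amplifying cells (TACs, which divide and feed the growing hair) were negative for GFP, CD34 and SCA1, high in Itgb1 and positive for P-cadherin, and came from Lgr5-eGFP-ires-CreER mice at postnatal day 30, in anagen, the growth phase. Suprabasal TACs had low GFP and no Itga6 or CD34, and came from K14-H2BGFP mice at postnatal day 30, also in anagen. In that line the keratin 14 promoter drives a histone-GFP fusion. Age and hair cycle stage coincide in this design, and the suprabasal TACs also differ in strain, so these cannot be told apart.

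The protein encoded by Ivl, involucrin, and those of the Sprr and Lce genes are precursors of the cornified envelope, the cross-linked protein shell that replaces the membrane of a dying keratinocyte. Crnn, Flg2, Flg, Hrnr and Rptn encode S100-fused type proteins, large repeat proteins that begin with a calcium-binding domain, of which filaggrin (Flg) bundles keratin filaments in the granular and cornified layers. The S100a genes encode small calcium-binding proteins, several of which are expressed well outside the epidermis. The envelope and S100-fused genes are best known from the differentiating layers of the epidermis rather than from the cells sorted here.

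Each population had 2 samples and 1 deposited peak list made from both, so replicate spread is unknown and no test between populations was possible. The pooled libraries held between 11053351 fragments (hair germ) and 47852893 (suprabasal TACs), and the lists between 56548 and 75652 peaks. Absence of a peak means that none was called at that depth, which was lowest in the hair germ. Intervals are exact Clopper-Pearson 95% intervals and cover counting error only. Fold enrichment over local background, −log10 q and percentile in a list are the authors' values or ranks from them, and they describe a peak within its own list. Peaks at gene ends did not separate the populations by their markers: 5, 5, 5 and 4 of the 5 bulge genes (bulge, hair germ, basal and suprabasal TACs in turn) and all 4 matrix genes in each list had one. Peaks assigned to the 5 bulge genes numbered 72, 61, 50 and 42. Those assigned to the 4 matrix genes numbered 24 (bulge), 36 (hair germ), 59 (basal TACs) and 79 (suprabasal TACs). Of the 9 immune cell genes, 0, 0, 1 and 2 had a peak at a gene end in those lists, and of the 4 melanocyte genes 2, 2, 2 and 3. Peaks assigned to the 4 melanocyte genes numbered 6 (bulge), 4 (hair germ), 10 (basal TACs) and 21 (suprabasal TACs). The part of melanocytes in any member site was not tested.

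Sequences before the starts of 7 members are shown, chosen to include starts with a peak in all, some or none of the lists. The 250 bases before the start are given, 5′ to 3′ along the gene, from the RefSeq promoter table (GRCm38.p6, the same build as mm10). Capitals mark motifs, searched on both strands. They were the TATA box, spelled TATAAA, the AP-1 site, spelled TGANTCA, the C/EBP core, spelled TTGCNNAA, and the AP-2 site, spelled GCCNNNGGC; no motif overlapped another in these sequences. Crnn (chr3:93144539-93144788, + strand), Ivl (chr3:92573736-92573985, − strand) and Sprr1a (chr3:92485882-92486131, − strand) had a peak there in all 4 lists. Lce6a (chr3:92621661-92621910, − strand) had one in the bulge and hair germ lists and S100a8 (chr3:90668821-90669070, + strand) in the suprabasal TAC list. Flg (chr3:93273296-93273545, + strand) and Sprr2a1 (chr3:92215585-92215834, + strand) had none.
Crnn: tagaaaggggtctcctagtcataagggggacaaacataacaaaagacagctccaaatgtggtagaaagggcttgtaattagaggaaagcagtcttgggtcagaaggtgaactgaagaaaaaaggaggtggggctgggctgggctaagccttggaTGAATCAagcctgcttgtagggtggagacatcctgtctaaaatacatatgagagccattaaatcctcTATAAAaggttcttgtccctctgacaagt
Ivl: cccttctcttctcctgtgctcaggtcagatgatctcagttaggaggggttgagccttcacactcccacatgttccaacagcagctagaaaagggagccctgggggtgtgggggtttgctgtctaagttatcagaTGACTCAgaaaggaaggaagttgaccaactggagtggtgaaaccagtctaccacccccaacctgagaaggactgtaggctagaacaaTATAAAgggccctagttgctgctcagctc
Sprr1a: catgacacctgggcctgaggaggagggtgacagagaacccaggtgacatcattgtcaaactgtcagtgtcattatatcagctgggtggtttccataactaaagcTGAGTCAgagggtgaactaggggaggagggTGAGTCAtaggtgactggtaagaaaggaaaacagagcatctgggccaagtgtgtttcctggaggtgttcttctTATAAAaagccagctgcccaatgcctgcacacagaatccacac
Lce6a: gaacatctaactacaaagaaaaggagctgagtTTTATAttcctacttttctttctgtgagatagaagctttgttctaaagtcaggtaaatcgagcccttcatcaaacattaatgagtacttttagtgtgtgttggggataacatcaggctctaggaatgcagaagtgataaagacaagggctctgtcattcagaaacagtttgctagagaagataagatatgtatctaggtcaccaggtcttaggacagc
S100a8: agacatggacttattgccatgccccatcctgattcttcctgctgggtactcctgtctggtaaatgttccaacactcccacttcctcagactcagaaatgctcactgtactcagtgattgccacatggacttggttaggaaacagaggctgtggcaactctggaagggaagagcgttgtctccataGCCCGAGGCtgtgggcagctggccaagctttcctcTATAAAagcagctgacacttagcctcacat
Flg: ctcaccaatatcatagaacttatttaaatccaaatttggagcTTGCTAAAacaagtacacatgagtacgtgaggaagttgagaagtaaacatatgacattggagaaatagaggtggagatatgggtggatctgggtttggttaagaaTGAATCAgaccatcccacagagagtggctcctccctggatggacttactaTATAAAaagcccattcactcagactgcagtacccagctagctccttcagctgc
Sprr2a1: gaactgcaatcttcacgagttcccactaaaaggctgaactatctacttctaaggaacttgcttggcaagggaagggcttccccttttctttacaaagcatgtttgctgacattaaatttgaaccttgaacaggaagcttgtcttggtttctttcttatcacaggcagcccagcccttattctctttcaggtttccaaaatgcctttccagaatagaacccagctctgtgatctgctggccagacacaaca

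The 3 sequences accessible in all 4 lists each held an AP-1 match and a TATA box match. In Crnn the first bases of these matches lay 96 and 29 bases before the start, and in Ivl 116 and 29 bases before it. Sprr1a held 2 AP-1 matches, 146 and 116 bases before its start. The same 2 motifs also stood before Flg, which had no peak, so matches to these patterns alone did not separate the accessible starts. The match to TGANTCA read TGAATCA in Crnn and Flg, TGACTCA in Ivl and TGAGTCA in Sprr1a. Over all 56 promoter windows of the 52 members found in the table (S100a14, S100a2, Lce1f and S100a10 were not matched), each running from 250 bases before to 50 after the start, TATAAA stood in 42.9% and TGANTCA in 30.4%. Over all 21045 windows of protein-coding genes the shares were 12.7% and 7.04%. The member shares did not hold for every family. No Lce window held TGANTCA, whereas most Sprr windows did, several of them close copies of each other. TATAAA was also more frequent in Sprr than in Lce windows. Among the 14 member windows with a peak in any list TGANTCA stood in 5, and among the 42 without one it stood in 12. The GC box GGGCGGG, common before widely expressed genes, stood in 5.36% of member windows and 34.2% of all windows. For TTGCNNAA the shares were 10.7% and 10.3%, for GCCNNNGGC 8.93% and 20.1%. The grainyhead-like motif AACCGGTT stood in 0 of the member windows and 0.181% of all. The median GC content was 47.0% in member windows and 56.7% in all windows. These matches describe the letters and do not show that a factor was bound.

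Few of the members had an accessible end. A peak lay within 1 kb of either end of 15 of the 56 genes in the bulge list (26.8%, interval 15.8 to 40.3), 14 in the hair germ list (25.0%, 14.4 to 38.4), 13 in the basal TAC list (23.2%, 13.0 to 36.4) and 15 in the suprabasal TAC list (26.8%, 15.8 to 40.3). Over all protein-coding genes the corresponding shares were 60.5%, 59.6%, 63.0% and 62.9%, and over chromosome 3 alone they were 66.0%, 64.1%, 68.4% and 67.0%. The low share lay outside the S100a family. Of the 41 other members, 4 had such a peak in the bulge and hair germ lists (9.76%) and 3 in each TAC list (7.32%, interval 1.54 to 19.9). The S100a genes had 11, 10, 10 and 12 of 15. The set of accessible genes was nearly the same in every list, with 13 genes holding an end peak in all 4. These were S100a1, S100a13, S100a14, S100a16, S100a3, S100a4, S100a5, S100a6, S100a11, S100a10, Sprr1a, Ivl and Crnn. Only 4 further genes had one in some lists, and 39 had none in any. The share of all protein-coding genes with an end peak in all 4 lists was not computed, so this constancy is not shown to be particular to the members. At the start itself, 10 of 52 members had a peak over the promoter window in each list, against 58.3%, 57.5%, 60.1% and 59.6% of all genes with a window.

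**Figure D1:**
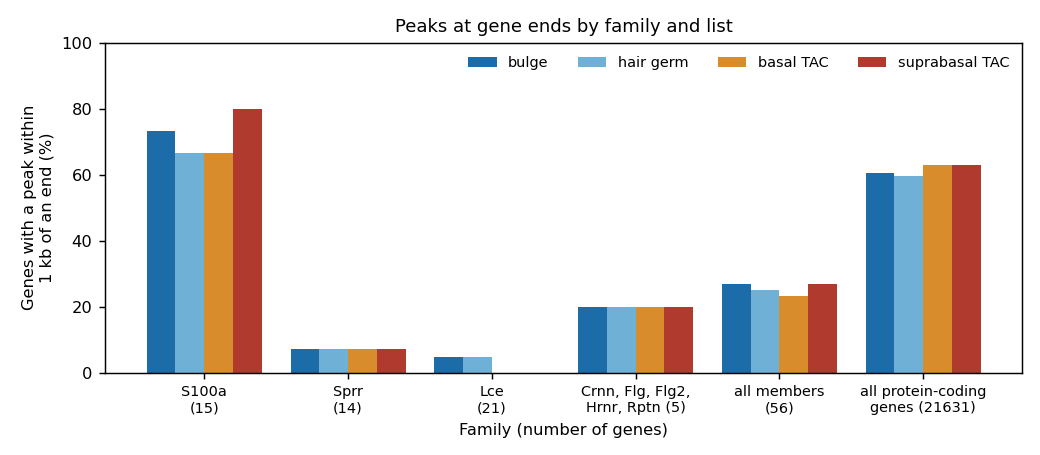
Share of genes (vertical axis, percent) with a peak within 1 kb of a gene end, by family and list. The S100a bars stand at 66.7% or above and the Sprr and Lce bars below 10%, while all protein-coding genes stand at 59.6% to 63.0%; Ivl, a single gene with a peak in each list, is counted among all members only.

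Peaks assigned to the complex numbered 65 in the bulge list, 62 in the hair germ list, 68 in the basal TAC list and 69 in the suprabasal TAC list, or 0.104%, 0.110%, 0.0899% and 0.0957% of each list. They belonged to 25 of the 56 genes in the bulge list, 24 in the hair germ list and 25 in each TAC list, while 69.4%, 68.8%, 73.6% and 72.6% of all protein-coding genes were the nearest gene of a peak. In at least 1 list it was 32 of the 56, against 78.4% of all genes. The members are short, with a median span of 1755 bp against 17329 bp for all genes and 22915 bp for all genes with a site; the part of gene length in the low share was not tested. Of the 24 members with no peak in any list, 14 were Lce genes, 7 Sprr genes, 2 S100a genes (S100a7l2 and S100a1, whose start lay under a peak assigned to its neighbour S100a13) and the remaining one was Flg. Merged across lists, the peaks formed 105 sites, of which 33 were held by all 4 lists (31.4%, interval 22.7 to 41.2, against 27.3% of all 114956 sites). A site can hold 2 peaks of the same list, so differences in peak number partly reflect how the caller split a site. Counted by site, the lists held 65 (bulge), 59 (hair germ), 68 (basal TACs) and 66 (suprabasal TACs). The 33 common sites were longer than the other 72, with a median of 1315 bp against 532 bp, and 13 of them lay within 1 kb of a member's end against 5 of the others. Merging peaks of more lists by itself lengthens a site and can bring it closer to a gene end. These values were not computed for all sites, so they are not shown to be particular to the members.

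**Figure D2:**
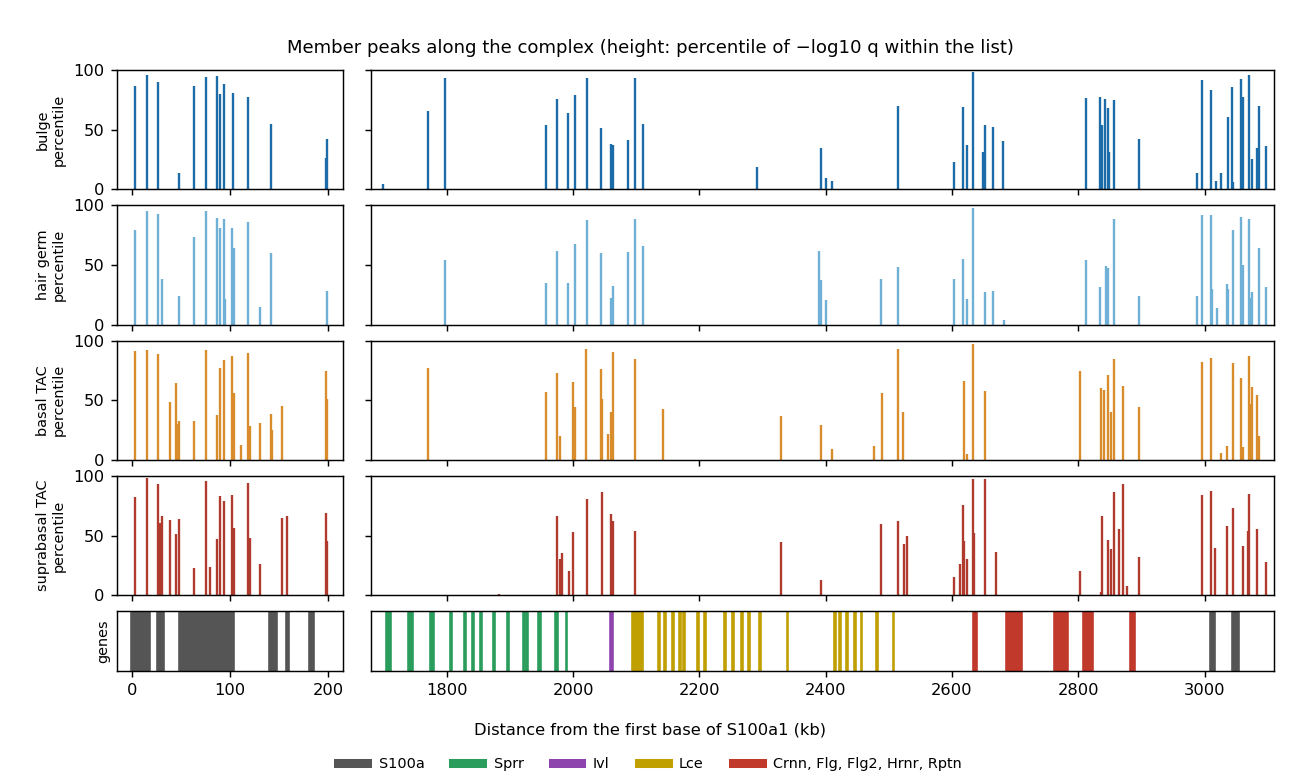
Member peaks in each list (rows) by distance from the first base of S100a1 (horizontal axis, kb), with line height giving the percentile of the peak's −log10 q within its own list and the bottom strip giving the genes, drawn slightly wider than to scale so that short ones show. The empty stretch between the panels is not drawn and holds S100a7l2, which had no peak; the lines crowd over the S100a blocks and around Ivl and Crnn, and are sparse over Sprr2, Lce1 and Flg.

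Along the chromosome, peaks were concentrated in islands. The S100a genes at each flank were the most covered: from S100a1 to S100a9 (184.7 kb) peaks covered 9.19% (bulge), 9.39% (hair germ), 10.8% (basal TACs) and 11.1% (suprabasal TACs) of the bases, and from S100a11 to S100a10 (44.2 kb) 15.9%, 11.4%, 7.77% and 8.19%. Chromosome 3 as a whole was covered at 1.75%, 1.45%, 2.09% and 1.79%. The block from Sprr2a1 to Ivl (358.0 kb) stood near that level at 2.22%, 1.64%, 2.40% and 1.76%. The block from Lce6a to Lce1m (414.2 kb) stood at 2.07%, 1.75%, 2.14% and 0.985%, the last of which was below the chromosome. Over all chromosomes but Y and M, with the caller's effective genome size as the length, the share was 2.77%, 2.29%, 3.27% and 2.98%. The blocks and chromosome 3 were divided by their own length instead, so this share cannot be ranked against theirs. From Crnn to Rptn (254.7 kb) the coverage was 3.24%, 1.66%, 2.98% and 2.77%.

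**Figure D3:**
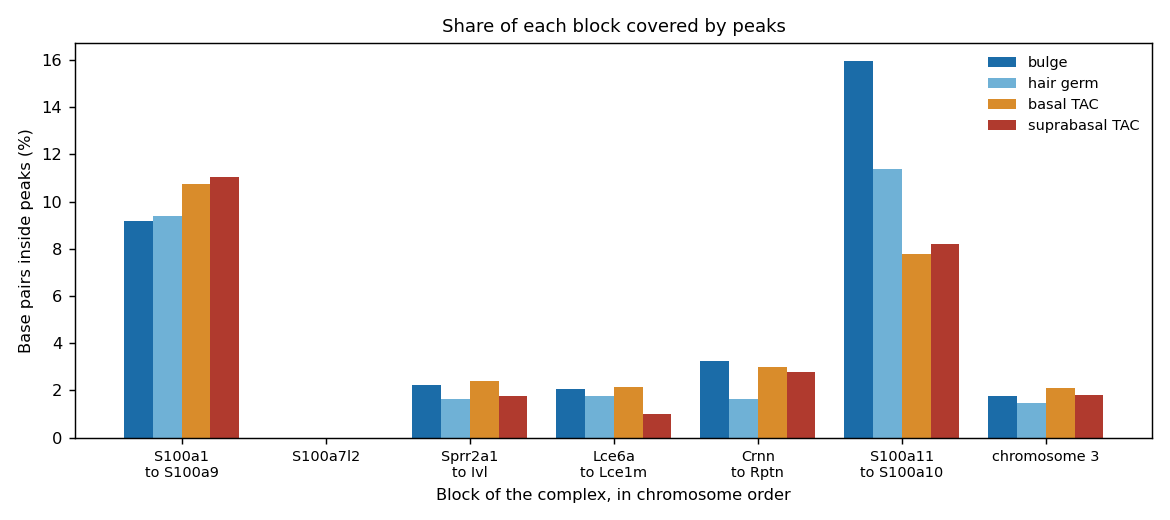
Share of base pairs inside peaks (vertical axis, percent) for each block of the complex and for chromosome 3, by list. Both S100a blocks stand above the chromosome in all 4 lists, S100a7l2 is at 0, and the Lce block reaches its lowest value, 0.985%, in suprabasal TACs.

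Between the islands lay stretches with no peak in any list. Lengths of such stretches elsewhere on the chromosome were not computed, so these are not shown to be particular to the complex. The longest one with many members (chr3:92654293-92802493, 148.2 kb) spanned 10 Lce1 genes, from Lce1b to Lce1j. Another (chr3:93192883-93313272, 120.4 kb) held Flg2 and Flg whole. A run of 5 Sprr2 genes, Sprr2b to Sprr2h, lay in a stretch of 85.4 kb, the genes Sprr2i, Sprr2k, Sprr1b and Sprr3 in one of 72.7 kb, Sprr2a1 and Sprr2a2 in one of 70.4 kb, and the Lce3 genes Lce3a to Lce3e in one of 65.8 kb. S100a7l2 stood in a stretch of 797.7 kb between the first S100a genes and the Sprr2 genes. Many of these genes are close copies of each other: the promoter windows of Sprr2a1 and Sprr2a2 were identical over all 300 bases, and that of Sprr2a3 matched them at 90.7%. In all, 22 windows shared at least 70% of their bases with another member's window, all of them in Sprr2, Lce1 and Lce3 genes, and 0 of the 22 held a peak, against 14 of the other 34. The sources used here do not state how reads matching several places were handled, and the part of this in the gaps was not tested.

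Among the envelope precursors, Ivl had a peak at its start in every list. Its peaks numbered 3 in each list but that of basal TACs, which had 5. The peak at its start (chr3:92573146-92574142) had fold enrichments of 6.19, 5.61, 9.90 and 5.30 in these lists, at percentiles 37.0, 32.7, 90.8 and 62.0, and was among the 10 strongest member sites by −log10 q in the basal TAC list only. A second site, 2.06 kb past the start, was also in all 4 lists. Farther past the gene the lists differed: a site 19.14 kb from the start was held by the bulge (fold 10.6), hair germ (11.3) and basal TACs (10.4), and one 16.31 kb from the start by basal (6.28) and suprabasal TACs (11.6). A site at 8.07 kb was in the basal TAC list alone. Only the basal TAC list held every Ivl site.

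The Sprr genes encode small proline-rich proteins that are cross-linked into the envelope. Sprr1a was the only one of the 14 with a peak at an end, and it had it in all 4 lists, with folds of 9.15, 7.67, 9.63 and 6.17. Sprr4 had the most peaks of the family, 4, 3, 3 and 4, none within 1 kb of the gene. The strongest of these, 31.70 kb before its start (chr3:92531437-92532947) in the interval toward Ivl, was in all 4 lists with folds of 16.5, 14.7, 14.5 and 11. Closer to Sprr4 the sites were held by different combinations of lists. One 2.91 kb before the start was called in the bulge (11.4) and hair germ (7.11) only, one at 4.68 kb in the bulge (2.44) and suprabasal TACs (3.56) only, one at 10.18 kb in basal (7.14) and suprabasal TACs (5.81) only, and one at 13.18 kb in every list but suprabasal TACs. The Sprr2 genes had 4 sites in all, none of them common to all lists. A strong one 8.43 kb before Sprr2b (chr3:92307624-92308926) was held by the bulge (fold 14.6, percentile 93.2) and the hair germ (9.79), and one 3.78 kb before Sprr2a3 by the bulge (15.2) and basal TACs (14.4).

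Of the 21 Lce genes, which encode late cornified envelope proteins, 7 had any peak, and their totals were 8, 8, 9 and 7 peaks. Lce6a, the first gene of the cluster, was the only one with an accessible start, and this was seen in telogen only. Its start site (chr3:92620859-92621831) had folds of 11.2 (bulge) and 11.8 (hair germ), with no peak in either TAC list. A site 23.49 kb past its start was likewise in the bulge (7.59) and hair germ (9.80) only. The other Lce6a site, 12.09 kb past the start and inside the gene, was in all 4 lists with folds of 17.2, 14.8, 10.8 and 6.26. Lce3a had 3, 3, 2 and 1 peaks and Lce1m had 1, 1, 2 and 3. The Lce1m site common to all lists, 7.28 kb before the start (chr3:93025351-93027324), was the second strongest member site of the basal TAC list, with a fold of 13.1 at percentile 93.4.

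Crnn, which encodes cornulin, had the strongest member site in 3 of the 4 lists. Its start (chr3:93144403-93145178) was open in all 4 lists with folds of 16.2 (bulge), 18.0 (hair germ), 14 (basal TACs) and 11.8 (suprabasal TACs). By −log10 q it ranked first among member sites in the first 3 lists and second in suprabasal TACs, at percentiles 98.1, 97.6, 97.2 and 97.4 of the whole lists. Crnn had 6, 5, 4 and 8 peaks, the largest difference in peak number between lists of any member. The site 15.41 kb before its start was 2 peaks in suprabasal TACs and 1 in each other list, which adds to that difference. Crnn had 3 sites in the suprabasal TAC list but not in the basal one. They lay 30.34 kb and 21.64 kb before the start and 1.67 kb past it, and the bulge and hair germ also held the first. A site 18.81 kb past the start was in all 4 lists, with folds of 6.46, 5.40, 8.31 and 12.2, and ranked just below the Crnn start among member sites of suprabasal TACs. Its peaks overlapped, but their summits did not coincide. They lay at base 93163357 (bulge), 93163164 (hair germ), 93162766 (basal TACs) and 93162764 (suprabasal TACs).

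Filaggrin itself had no peak in any list. Flg2, its neighbour, had 2, 2, 0 and 1 peaks, all before the gene. The sites 20.48 kb and 4.72 kb before its start were held by the bulge (9.61 and 8.21) and hair germ (6.27 and 3.76) and by neither TAC list, and the single suprabasal TAC peak, 16.23 kb before it, had a fold of 4.55. Neither gene had a peak at its start.

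Hrnr, which encodes hornerin, and Rptn, which encodes repetin, flank a cluster of sites held by different combinations of lists. Hrnr had 6, 4, 5 and 5 peaks and Rptn 2, 2, 3 and 5. A site 3.30 kb past the Hrnr start, inside the gene (chr3:93322610-93323498), was called in the bulge (fold 16.1) and the hair germ (10.0) only, whereas a site 5.80 kb before the start was called in basal (9.31) and suprabasal TACs (3.56) only. In the 60.1 kb between the genes there were 11 sites, of which 2 were in all 4 lists, 2 in both telogen lists only, 2 in both TAC lists only, 4 in a single list and 1 in another combination. The telogen sites lay 25.62 kb and 34.45 kb past the Hrnr start, and the TAC sites 42.60 kb past it and 11.80 kb before Rptn. The last (chr3:93381202-93382603) had a fold of 6.73 in basal and 9.49 in suprabasal TACs, where it stood at percentile 93.3. A site 26.30 kb before Rptn was in all lists, with folds of 15.2, 15.0, 9.67 and 9.78.

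**Figure D4:**
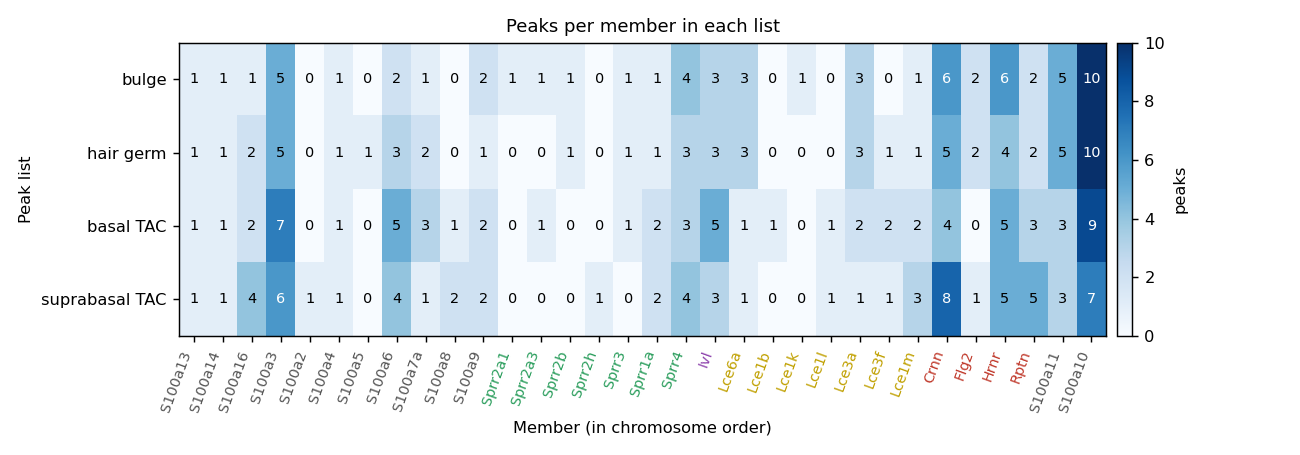
Number of peaks (shade and digits) assigned to each of the 32 members with any peak, in chromosome order (horizontal axis), in each list (rows). S100a10 stands out with 10, 10, 9 and 7 peaks, Crnn ranges from 4 to 8, and most Sprr and Lce genes have 0 or 1.

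The S100a genes held 46 of the 105 sites, and 19 of these were in all 4 lists (41.3%, interval 27.0 to 56.8, against 27.3% of all sites). S100a10, which encodes the p11 partner of annexin A2, had the most peaks of any member, with 10 in each telogen list, 9 in basal TACs and 7 in suprabasal TACs. Of its 12 sites, 5 were in all 4 lists and 3 in every list except suprabasal TACs. The strongest (chr3:93580611-93581921) was in all 4, with folds of 11.2, 9.69, 8.88 and 8.23. S100a11, which encodes another annexin-binding protein, had 5, 5, 3 and 3 peaks. Its start site (chr3:93520122-93523051) had folds of 7.05, 8.42, 8.99 and 8.09, and a site 13.68 kb before the start had folds of 9.29, 8.76, 10.7 and 9.07. Both genes had a peak at an end in every list.

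In the other S100a block, S100a3 had 5, 5, 7 and 6 peaks, S100a6 2, 3, 5 and 4, and S100a16 1, 2, 2 and 4. The site over S100a6 (chr3:90612340-90615642) was 1 peak in the bulge list and 2 in each other list. S100a3 is a cysteine-rich member known from the hair cuticle. A site near 1 of its 4 listed starts (chr3:90585461-90588076) was among the 10 strongest member sites of all 4 lists, with folds of 6.24, 6.72, 6.0 and 6.04. Inside the gene span, a site 9.77 kb before the nearest listed start was also in all lists, with folds of 14.7, 11.4, 6.14 and 3.70. The median fold over a whole list was 7.48, 7.14, 6.71 and 4.79. S100a14 had 1 site, at the gene's lower end (chr3:90525546-90527607), and it was the strongest member site in suprabasal TACs and the second strongest in the bulge and hair germ, with folds of 9.30, 8.93, 7.83 and 7.79. The sites at the ends of S100a13, S100a16, S100a4 and S100a6 were likewise in all 4 lists, with folds from 4.59 (S100a4 in suprabasal TACs) to 9.42 (S100a13 in basal TACs). Past S100a6, a site 16.56 kb from the start was in all lists (12.0, 12.7, 10.8 and 8.65) and one at 18.24 kb in basal and suprabasal TACs only.

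The remaining S100a genes differed between lists. S100a8, which encodes a subunit of the calprotectin dimer made by neutrophils and by stressed keratinocytes, had 0, 0, 1 and 2 peaks. Its start (chr3:90668718-90669257) was called in suprabasal TACs alone, with a fold of 7.49 at percentile 66.8, and a site 4.61 kb before it in basal (7.68) and suprabasal TACs (6.88). Its partner S100a9 had 2, 1, 2 and 2 peaks, none at an end. Peaks assigned to the 9 immune cell genes, which include S100a8 and S100a9, numbered 7, 6, 16 and 19. Of the 9, Csf1r had an end peak in both TAC lists and neither telogen list, S100a8 in suprabasal TACs only, and the other 7 had none. Cd3e, Lyz2 and Csf1r had peaks in both TAC lists and in neither telogen list, and Itgam and Cd207 in suprabasal TACs only. Ptprc had peaks in every list (3, 5, 8 and 8), and Itgax had 2 in the bulge list and none elsewhere. The part of immune cells in the S100a8 peaks was not tested. S100a2 had 1 peak, in suprabasal TACs, with a fold of 1.88. S100a7a had an end peak in the bulge list alone, but that site (chr3:90652851-90653617), 1 of its 3, was held by the bulge (11.3), hair germ (11.3) and basal TACs (6.33), and only the bulge peak reached within 1 kb of the gene's end. Over its promoter window, which lies inside the gene span, a site (chr3:90653633-90654125) was called in basal TACs alone, with a fold of 4.99.

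Between neighbouring populations of the lineage, the exchange of member sites was close to that of all sites. Of the 72 sites held by the bulge or the hair germ, 7 were in the hair germ only (9.72%, against 9.92% over all sites) and 13 in the bulge only (18.1% against 19.7%). Of the 85 held by the hair germ or basal TACs, 26 were in basal TACs only (30.6% against 38.0%) and 17 in the hair germ only (20% against 15.2%). Of the 85 held by either TAC population, 17 were in suprabasal TACs only (20% against 22.7%) and 19 in basal TACs only (22.4% against 27.4%). Between the ends of the lineage, 28 of 93 were in suprabasal TACs only (30.1% against 34.9%) and 27 in the bulge only (29.0% against 25.5%). In each comparison the share of changed sites held by the first-named list had an interval that contained the share over all sites. For the hair germ against the bulge it was 35.0% (15.4 to 59.2) beside 33.5%, for basal TACs against the hair germ 60.5% (44.4 to 75.0) beside 71.3%, for suprabasal against basal TACs 47.2% (30.4 to 64.5) beside 45.4%, and for suprabasal TACs against the bulge 50.9% (37.1 to 64.6) beside 57.8%. The comparisons share lists and are not independent.

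**Figure D5:**
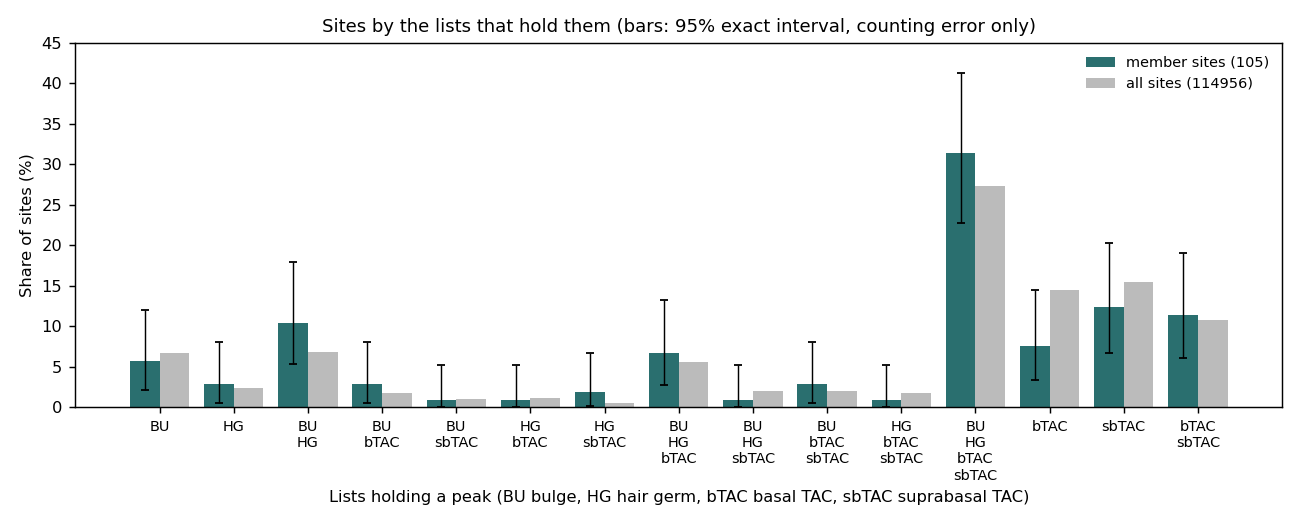
Share of sites (vertical axis, percent) in each of the 15 combinations of lists (horizontal axis) for the 105 member sites, with 95% exact intervals for counting error, and for all 114956 sites. The combination of all 4 lists is the most frequent in both, at 31.4% and 27.3%.

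Taken by stage, 20 member sites were in telogen lists only (19.0%, interval 12.0 to 27.9, against 15.9% of all sites) and 33 in TAC lists only (31.4%, 22.7 to 41.2, against 40.8%). The sites held by both lists of a stage and neither of the other numbered 11 for telogen (10.5%, against 6.78% of all sites) and 12 for the TACs (11.4%, against 10.8%). The telogen sites belonged to Sprr2b, Sprr4, Lce6a, Lce3a, Flg2, Hrnr and S100a11, and the TAC sites to S100a16, S100a3, S100a6, S100a8, Sprr1a, Sprr4, Ivl, Lce1l, Lce1m, Hrnr and Rptn. When the summit coverage of each was scaled to the depth of the lists lacking it, all 11 telogen sites, and all 12 TAC sites, reached the 10th percentile of summit coverage in both lacking lists from at least 1 of the lists that held them. From both holding lists, 10 of the 11 and 8 of the 12 did so. This level was 18 (bulge), 10 (hair germ), 21 (basal TACs) and 22 (suprabasal TACs). Scaling from the telogen lists goes upward in depth, which makes this level easy to reach. The same share over all sites was not computed, so these counts neither set the members apart nor show why a list lacked a site. Sites in a single list had lower median folds than all member peaks of that list. The medians were 3.97 over 6 bulge sites, 4.61 over 3 hair germ sites, 4.99 over 8 basal TAC sites and 4.36 over 13 suprabasal TAC sites. Over all member peaks they were 7.27 (bulge), 6.69 (hair germ), 6.84 (basal TACs) and 5.27 (suprabasal TACs). Folds of all single-list sites outside the complex were not computed.

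Of the S100-fused genes, 6 sites were in suprabasal but not basal TACs and 1 in basal but not suprabasal TACs (85.7% of 7 in suprabasal TACs, interval 42.1 to 99.6, against 45.4% over all sites). The Sprr genes had 3 sites in each direction of that comparison, the Lce genes 2 and 4, and the S100a genes 6 and 9. These counts are small, and they were singled out after their values were seen.

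A chosen list of 9 other protein-coding genes of the complex, which carry different symbols, gave 20, 20, 29 and 29 peaks. Of these 9 genes, 4, 4, 6 and 4 were accessible at an end. Lor, which encodes loricrin, the main envelope protein of the epidermis, had 3, 3, 2 and 4 peaks and an end peak in every list. Tchh, which encodes trichohyalin of the inner root sheath, a layer built by cells descending from the TACs, had 2, 2, 5 and 8 peaks and no end peak in any list.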

How the data were processed

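The peak caller was MACS 2.1.1.20160309, run by the authors without a control on 1 pooled paired-end alignment per population at a q-value of 0.05, per the file headers. The submitters' processing notes also name Picard, Bowtie2 2.2.9 and mm10. The sources used here do not state whether read ends were shifted to the transposase cut. The deposited values per peak were summit coverage (signal, not scaled for depth), −log10 p and −log10 q, and fold enrichment, a ratio to local background. The names of both deposited −log10 columns were damaged, and their order in MACS output decided which is which.

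Peaks on chromosomes Y and M were left out. Peaks overlapping by 1 bp or more across lists were merged into sites. Gene spans came from a RefSeq table and starts and strand from RefSeq promoter windows (GRCm38.p6). For a gene with several starts, distances were taken from the nearest. Exons and introns were not separated. Peaks went to the nearest protein-coding span, ties to the nearer span centre. The steps were tested on planted peaks. Python 3.11.15, pandas 2.3.3 and scipy 1.17.1 were used.

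Members and lists were chosen with earlier results of these data known. Genes named one by one were the 10 with most peaks, the 10 with the largest difference between lists, those with an end peak in 1 or 2 lists only, and Flg, Flg2, Ivl, Hrnr, Rptn and Crnn. Sites named by rule were the 10 with the highest −log10 q per list and those in all 4 lists within 1 kb of a member's end; other single sites were chosen after their values were seen. The alternatives were a stricter −log10 q, other distances, equal peak numbers, a larger overlap, the summit as position and coverage scaled by total fragments.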

Additional observations from a re-analysis of the deposited data

How the results depend on the processing

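Of the values recomputed under the alternatives, most moved by less than their interval or by less than 1.5 times. Counting only peaks inside a gene span left 16 (bulge), 18 (hair germ), 16 (basal TACs) and 18 (suprabasal TACs) peaks, in place of 65, 62, 68 and 69. Within 5 kb of a gene end, 23 members in the bulge and 21 in basal TACs had a peak, in place of 15 and 13. With a −log10 q of at least 10, the hair germ share of sites changed against the bulge was 15.0% (3 of 20) in place of 35.0%, and coverage from Crnn to Rptn in the hair germ was 1.05% in place of 1.66%. The cause was not tested. No paired analysis was possible because each list pools both samples, and for the same reason no sample could be left out. The hair germ library had the fewest fragments and limits what absence there shows.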

Other observations

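The 15 cornified envelope genes outside the complex had 55, 46, 57 and 71 peaks in the 4 lists (bulge first, then hair germ, basal and suprabasal TACs), and 12, 12, 8 and 11 of them had a peak within 1 kb of a gene end. The 5 genes of the suprabasal layers of the interfollicular epidermis had 29, 20, 16 and 20 peaks, with 5, 4, 2 and 4 accessible at an end. The 4 genes whose products modify or accompany trichohyalin in the inner root sheath had 10, 8, 26 and 32 peaks. At a gene end, Padi1 had a peak in all 4 lists, Padi3 and Krt71 in both TAC lists only, and Tgm3 in none. Peaks numbered 3, 3, 8 and 8 for Padi1, 0, 0, 6 and 5 for Padi3, 6, 4, 9 and 15 for Tgm3, and 1, 1, 3 and 4 for Krt71. The inner root sheath list, which shares Krt71 with them and Tchh with the complex, had 20, 16, 22 and 33 peaks. Of its 4 genes, 1, 0, 1 and 1 had an end peak: Gata3 in the bulge, Krt71 in the TAC lists, and Krt27 and Tchh in none. The dermal genes had an end peak in 3 of 4 in every list and the endothelial genes in 1, 1, 1 and 0 of 4; their part in any member site was not tested.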
